A study of Mus musculus with 96 samples.

Results

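The microRNA hairpins of the imprinted Dlk1-Dio3 region of mouse chromosome 12 were examined in small RNA sequencing of the striatum. Members were the rows of the count table whose miRBase identifiers were listed for this cluster, and all 42 listed identifiers were found among the 1187 hairpins of the table. The mice were C57BL/6 and belonged to an allelic series of CAG repeat lengths. Knock-in animals of 4 lines (Q20, Q50, Q92, Q140) were heterozygous and carry 1 wild-type *Htt* allele and 1 allele with human *HTT* exon 1, whose repeat length is in the line name. The altered allele sits at the endogenous locus in all cells. Wild-type (WT) mice belonged to the Q20 line or to the Q50 line, as their titles and housing labels give it. Each of these 6 genotypes was sampled at 6 and at 10 months with 4 males and 4 females, which gave 96 libraries from separate mice. The Q20 mice and both WT groups formed the 24 controls of each age. No WT siblings of the Q92 or Q140 line were among the libraries, so in these lines the repeat and the remaining genetic background cannot be told apart. The housing labels of Q92 and Q140 mice name their own genotype alone, whereas the study's methods describe cages shared by heterozygous and WT mice.

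The region is imprinted: *Dlk1*, *Rtl1* and *Dio3* are expressed from the paternal chromosome, whereas *Meg3*, *Rian*, *Mirg* and the microRNA hairpins are expressed from the maternal one, in the same orientation as a long non-coding transcript. Each hairpin is cut by Drosha and Dicer into short mature microRNAs, whose bases 2 to 8 (the seed) pair with target transcripts. The hairpins are strongly expressed in neurons and placenta. In rodent neurons several of them act in dendrite and spine growth, among them miR-134, which limits spine size through *Limk1*.

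The hairpins lay on the plus strand of chr12:109563692-109743795 (GRCm38), a span of 180.1 kb between *Dlk1* and *Dio3*, for the 41 of them whose strand the RefSeq sequence table gives. They fell into 3 stretches. The first, with 10 hairpins, runs from *Meg3* to the antisense strand of *Rtl1*, and 5 of its hairpins (mir-431, mir-433, mir-127, mir-434 and mir-136) overlap *Rtl1* in the opposite orientation. The second has 2 hairpins within *Rian*. The third has 30 hairpins within 34.7 kb up to and inside *Mirg*. The deposited tables give identifiers and no names, so the hairpin length that the ratio of counts to FPKM implies was used to assign names. The 42 lengths, from 61 to 124 bases, were the same set as the RefSeq lengths of the 42 named hairpins. A length that occurs once gave a name to 16 identifiers. The other 26 share a length with 1 to 4 others and are given by identifier, with their candidate names where this helps. One of these, of 91 bases, recurs below: MI0001524 and MI0004601 are mir-431 and mir-673, in an order that was not settled here because no table used here pairs the identifiers with names.

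The mature sequences of the hairpins on which the results turn are shown from RefSeq (GRCm38), with the seed in capitals. Each hairpin count pools both arms, so the values below cannot be assigned to 1 of them.

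mmu-miR-127-5p: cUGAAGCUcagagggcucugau

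mmu-miR-127-3p: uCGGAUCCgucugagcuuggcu

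mmu-miR-433-5p: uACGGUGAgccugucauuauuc

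mmu-miR-433-3p: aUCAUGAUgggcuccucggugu

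mmu-miR-431-5p: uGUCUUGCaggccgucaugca

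mmu-miR-431-3p: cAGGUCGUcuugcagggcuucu

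mmu-miR-673-5p: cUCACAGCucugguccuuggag

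mmu-miR-673-3p: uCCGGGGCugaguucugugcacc

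mmu-miR-541-5p: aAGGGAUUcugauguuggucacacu

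mmu-miR-541-3p: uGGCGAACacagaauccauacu

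mmu-miR-540-5p: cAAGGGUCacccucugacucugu

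mmu-miR-540-3p: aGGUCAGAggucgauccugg

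mmu-miR-412-5p: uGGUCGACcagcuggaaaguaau

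mmu-miR-412-3p: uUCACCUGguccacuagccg

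The cluster holds many different seeds. The table has 80 mature forms of the 42 hairpins with 77 seeds, and 3 seeds are shared by a pair each, which are shown because members of a pair can match the same target sites.

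mmu-miR-379-3p: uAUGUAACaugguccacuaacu

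mmu-miR-411-3p: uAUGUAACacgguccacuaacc

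mmu-miR-494-5p: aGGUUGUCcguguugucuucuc

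mmu-miR-410-5p: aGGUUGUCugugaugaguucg

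mmu-miR-376c-5p: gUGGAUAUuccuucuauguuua

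mmu-miR-376b-5p: gUGGAUAUuccuucuaugguua

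None of the 7 hairpins whose sequences stand above is among them.

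Libraries had 3948560 to 12530911 counts, with a median of 6638753. Levels below are CPM, the count of a hairpin relative to its library's total after adjustment by TMM factors, and differences are log2 fold changes with their standard error (SE). A hairpin was called at a Benjamini-Hochberg adjusted p under 0.05 in the edgeR quasi-likelihood F test over the 474 hairpins that passed a filter on low counts. All 42 members passed it. By the rule the study used for removing libraries, recomputed here as a standardized connectivity Z between libraries, 8 libraries lay under -5. The 3 lowest were Q92 10-month female replicate 1 (Z of -11.45), Q140 6-month male replicate 1 (-9.295) and 6-month male replicate 3 of the WT mice from the Q50 line (-8.169). Values without them are given beside the results they move most. Estimated counts of 6 members were not whole numbers in 79 to 96 libraries, so reads of these hairpins may be divided with other sequences and their levels are uncertain. They are MI0000162 (mir-136), MI0000798 (mir-381), MI0000400, MI0000615, MI0001162 and MI0003533. Markers of striatal and other cell types could not be checked, because their identifiers are not paired with names either. In whole tissue, fewer cells of a type and less RNA per cell cannot be told apart.

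The cluster was one of the main sources of microRNA in the striatum. In the 24 controls at 6 months its 42 hairpins held 19.36% to 24.5% of all hairpin counts, with a median of 23.19%. At 10 months controls held 18.83% to 23.86%, with a median of 21.34%. In Q140 mice the share was 23.31% to 27.19% at 6 months (median 25.16%) and 21.81% to 24.3% at 10 months (median 22.87%). At each age the Q140 range overlapped that of controls, and the ratio of the mean shares was 1.103 at 6 months and 1.084 at 10 months.

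**Figure D1:**
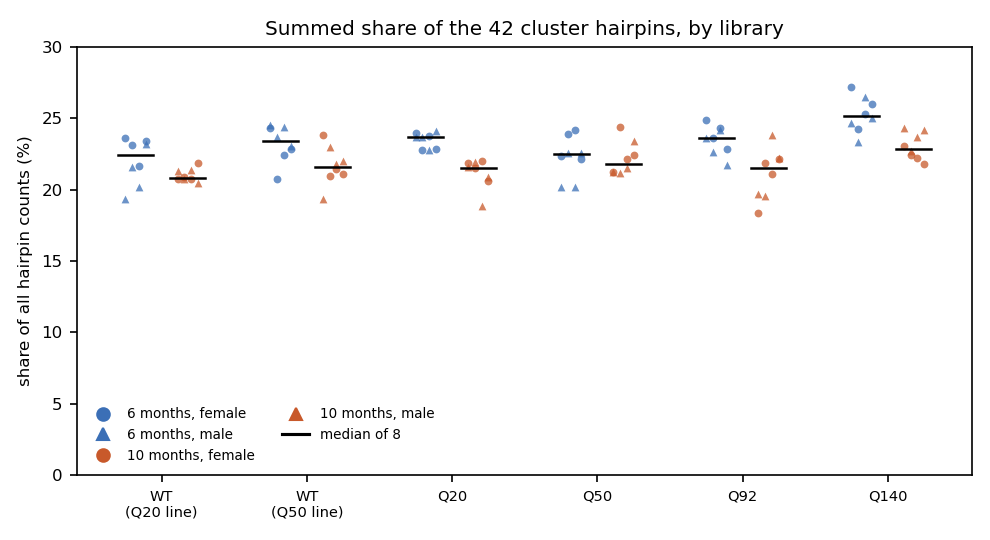
Summed share of the 42 cluster hairpins in all hairpin counts (y axis, percent) for each of the 96 libraries, by genotype (x axis), age (colour) and sex (symbol), with the median of 8 as a bar. The Q140 medians of 25.16% at 6 months and 22.87% at 10 months are above those of the other genotypes at the same age.

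A single hairpin, mir-127 (MI0000154), held 54.77% of the counts of the cluster and was the most abundant hairpin of the table, at a mean of 122900 CPM. Its microRNA is antisense to *Rtl1* and directs cleavage of that transcript in the mouse. MI0001526, one of mir-434, mir-665 and mir-770, followed with 45760 CPM, and both together held 74.76% of the cluster. The next were MI0001163 (mir-376b, mir-411 or mir-487b) with 10660 CPM, mir-410 (MI0001161) with 8413 CPM, mir-381 (MI0000798) with 6535 CPM and mir-541 (MI0003521) with 6361 CPM. Of the 42 members, 12 had a mean above 1000 CPM, 21 between 100 and 1000, 7 between 10 and 100, and 2 less than 10. The last were MI0000615 (mir-329 or mir-337) with 4.80 CPM and mir-494 (MI0003532) with 4.38 CPM. The share of the 41 members without mir-127 in Q140 mice had a median of 9.62% at 6 months, against 10.59% in controls, and of 10.2% at 10 months, against 10.05% in controls. That of mir-127 was 15.56% against 12.68% and 12.86% against 11.18%.

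The comparison of Q140 mice with controls asks which hairpins of the cluster change with the longest repeat. Over both ages mir-127, mir-433 and 1 hairpin of the mir-431 and mir-673 pair (MI0001524) were 1.16 to 1.25 times as high as in controls, whereas the other hairpin of that pair (MI0004601) was lower. All 4 lie in the *Rtl1* stretch and had the smallest adjusted p-values of the cluster. The combined log2 difference is the mean of both ages, but its p-value comes from the summed signed Z values of both. A combined value and its SE therefore need not match that p-value. With both ages combined, 10 of the 42 members (23.8%) were called higher and 4 (9.52%) lower. Over all 474 hairpins tested, 12.9% were called higher and 12.2% lower. The share called higher was therefore above that over all hairpins, and the share called lower was near it. The median log2 difference was 0.06 over members and -0.01 over all hairpins. With total counts in place of TMM scaling, which moved the median of all hairpins to -0.04, 4 members were called higher and 6 lower, so which direction prevailed depended on scaling. All 14 hairpins called kept their direction, and 8 their call. With total counts, calls were not counted over all hairpins. At 6 months 3 members were higher and 2 lower, against 3.59% and 4.22% of all hairpins. At 10 months 8 were higher and 1 lower, against 9.7% and 7.17%. No member had all 8 Q140 mice beyond the controls at either age, a count that was not made over all hairpins.

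**Figure D2:**
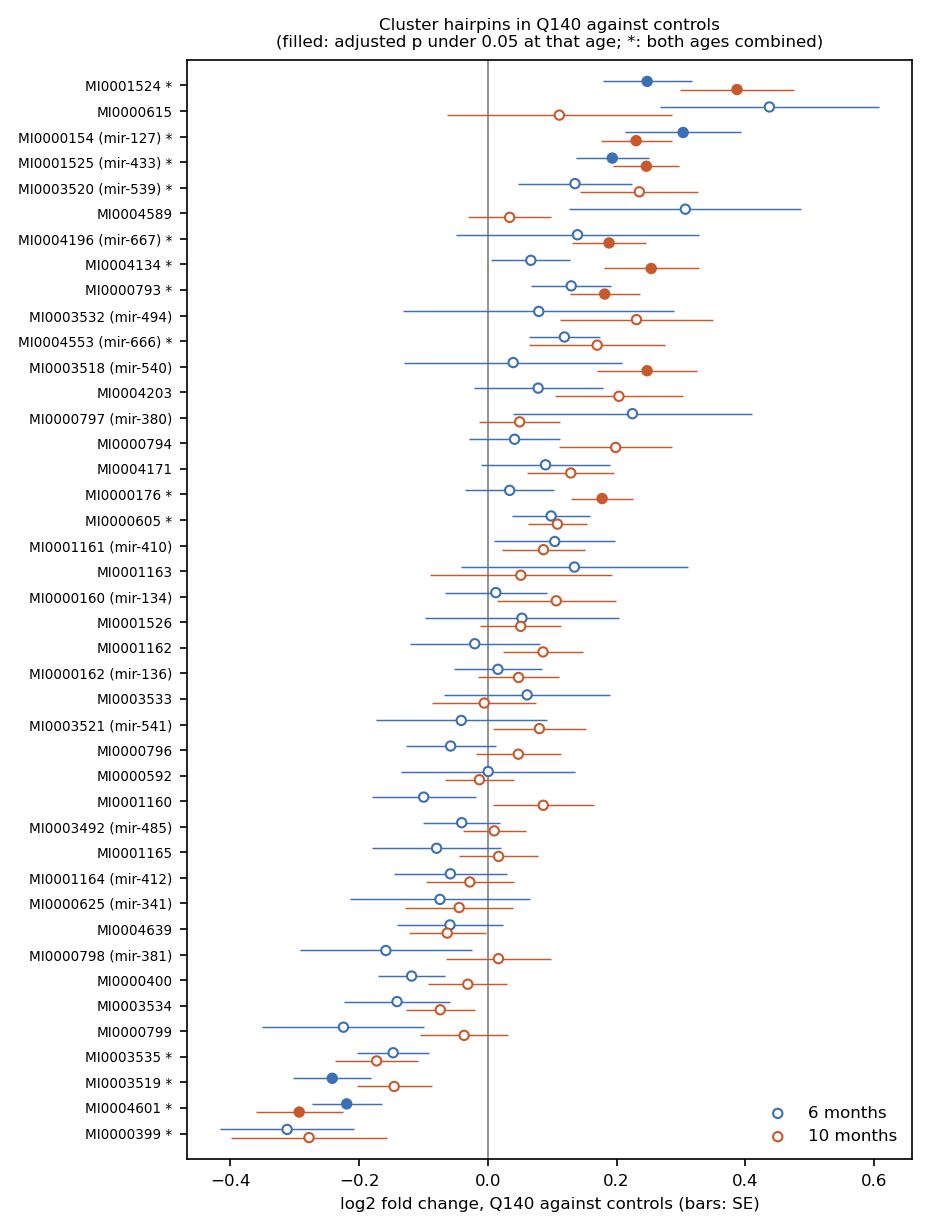
Log2 fold change of each of the 42 hairpins in Q140 mice against controls at 6 and 10 months (points, with SE as bars), ordered by the mean of both ages. Filled points were called at that age and asterisks mark the 14 hairpins called with both ages combined, 10 of them higher.

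mir-127 ranged from 88350 to 160300 CPM in controls at 6 months, with a median of 127200, and from 104200 to 189300 CPM in Q140 mice, with a median of 158100. At 10 months it ranged from 86400 to 122900 CPM in controls (median 109600) and from 107600 to 140700 CPM in Q140 (median 126500). The ranges overlapped at both ages, with 3 of 8 Q140 mice above every control at 6 months and 6 of 8 at 10 months. The log2 difference was 0.30 ± 0.09 at 6 months (edgeR, adjusted p 0.023), 0.23 ± 0.06 at 10 months (adjusted p 0.00158) and 0.27 ± 0.05 with both combined (adjusted p 1.23e-05). The 6-month call was lost without Q140 female replicate 4, male replicate 3 or male replicate 4, with an adjusted p of up to 0.131, whereas the combined call was kept without any single library. These 3 mice were those above every control at 6 months, and they shared an L number, as described below.

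mir-433 (MI0001525), which lies beside mir-127 within *Rtl1*, ranged from 644.2 to 988.1 CPM in controls at 6 months (median 767.2) and from 818.9 to 1164 CPM in Q140 (median 857.3). At 10 months the ranges were 632.6 to 896.1 CPM (median 750.3) and 785.3 to 991.8 CPM (median 864.4). All 8 Q140 mice were above the control median at each age, and 1 of 8 was above every control. The log2 difference was 0.19 ± 0.06 at 6 months (edgeR, adjusted p 0.0207), 0.25 ± 0.05 at 10 months (adjusted p 0.000351) and 0.22 ± 0.04 combined (adjusted p 2.47e-06). The 6-month call was lost without Q140 male replicate 1, Q50 male replicate 2 or Q50 male replicate 3 (adjusted p up to 0.0762) and with total counts (0.0604), whereas the combined call was kept.

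MI0001524, mir-431 or mir-673, ranged from 446.1 to 856.4 CPM in controls at 6 months (median 665.2) and from 706.2 to 978.2 CPM in Q140 (median 751). At 10 months it ranged from 409.1 to 777.1 CPM in controls (median 659.5) and from 709.5 to 928.6 CPM in Q140 (median 815.1). Here 2 of 8 Q140 mice were above every control at 6 months and 7 of 8 at 10 months. The log2 difference was 0.25 ± 0.07 at 6 months (edgeR, adjusted p 0.0155) and 0.39 ± 0.09 at 10 months (adjusted p 0.000845), and the combined value of 0.32 ± 0.06 was the largest among the hairpins of the cluster (adjusted p 4.26e-06).

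MI0004601, the other hairpin of 91 bases, went in the opposite direction. It ranged from 289.3 to 420.3 CPM in controls at 6 months (median 349.7) and from 280.5 to 335.6 CPM in Q140 (median 301.5). At 10 months the ranges were 196.1 to 338.9 CPM (median 292.1) and 197.2 to 257.1 CPM (median 233.9). All 8 Q140 mice were below the control median at each age, with 2 of 8 below every control at 6 months and none at 10 months. The log2 difference was -0.22 ± 0.05 at 6 months (edgeR, adjusted p 0.00614), -0.29 ± 0.07 at 10 months (adjusted p 0.000981) and -0.26 ± 0.04 combined (adjusted p 1.47e-06). One of mir-431 and mir-673 was therefore higher and the other lower in Q140 mice. The 6-month call of MI0004601 was lost when 1 of the single libraries was left out (edgeR, adjusted p 0.0651). Its combined call was kept without any single library.

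**Figure D3:**
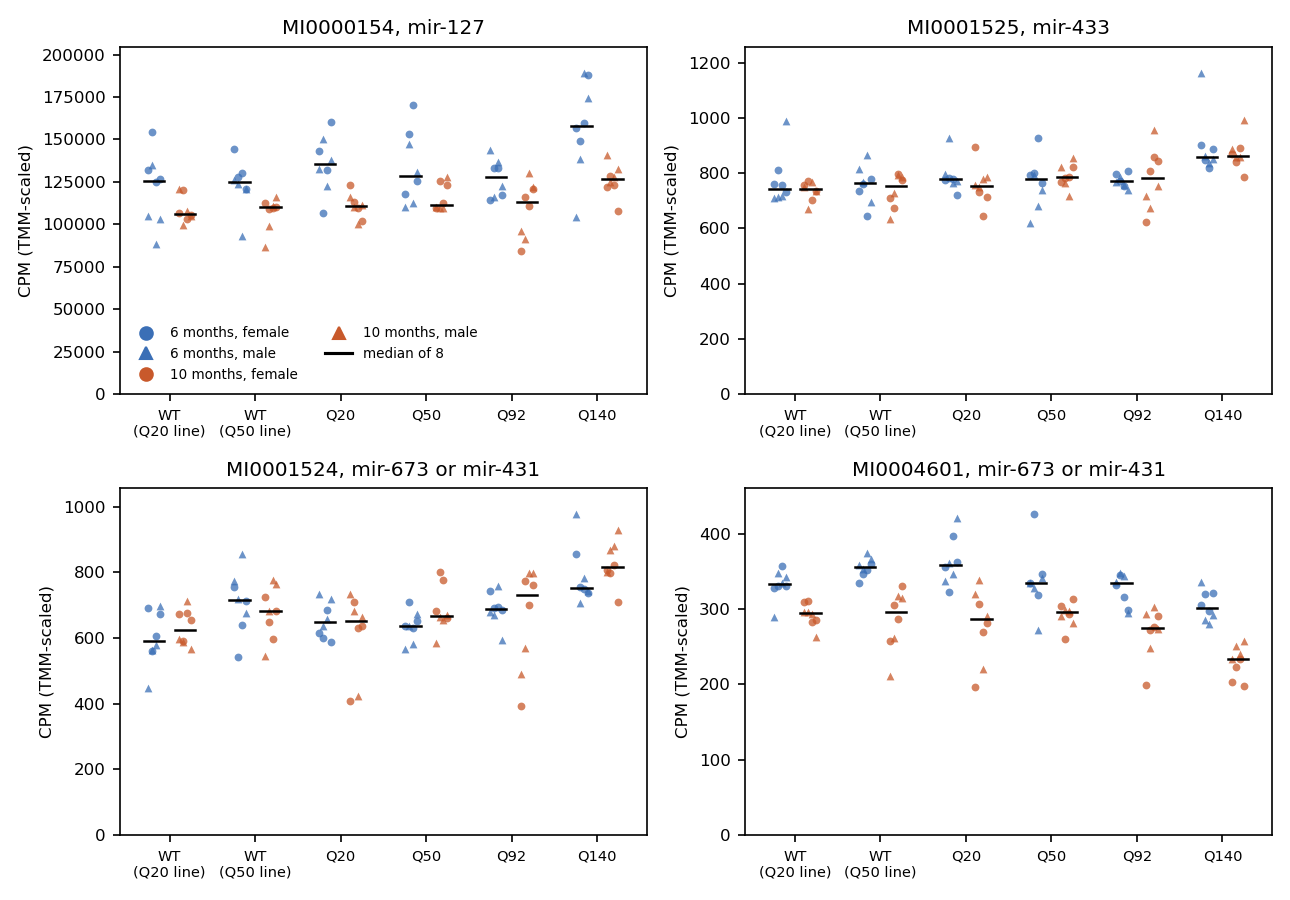
Levels (y axes, CPM after TMM scaling) of mir-127, mir-433 and both hairpins of 91 bases in each library by genotype (x axes), age (colour) and sex (symbol), with the median of 8 as a bar. The Q140 medians of mir-127 (158100 and 126500 CPM) and of MI0001524 (751 and 815.1 CPM) are the highest of their age, and those of MI0004601 (301.5 and 233.9 CPM) the lowest.

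The differences of these 4 hairpins had 1 direction in both sexes and in each L number that held Q140 libraries. The L number is a digit in the sample descriptions whose meaning is not stated and which was spread unevenly over groups. The 4 had the smallest adjusted p-values over these same libraries, so 1 direction within parts of them is no separate evidence. L3 and L4 at 6 months and L5 at 10 months held 1 Q140 library each. For mir-127 the mean log2 difference at 6 months was 0.29 in females and 0.32 in males, and at 10 months it was 0.12 and 0.30. That of MI0004601 was -0.16 and -0.24 at 6 months and -0.40 and -0.20 at 10 months. Within L5 and L6, which held 3 Q140 libraries each at 6 months, mir-127 differed by 0.15 and 0.30 and MI0004601 by -0.16 and -0.22. Within L4, which held 7 of the 8 Q140 libraries at 10 months, they differed by 0.18 and -0.39. MI0001524 differed by 0.30 and 0.40 in L5 and L6 at 6 months and by 0.31 in L4 at 10 months.

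The other members described by the rule for Q140 changed less or varied more. MI0003519, mir-382 or mir-543, had 146.9 to 207.8 CPM in controls at 6 months (median 177.7) and 128.5 to 189.6 CPM in Q140 (median 149.7), with 4 of 8 Q140 mice below every control. At 10 months it had medians of 168.8 CPM in controls and 146.2 CPM in Q140. Its combined log2 difference was -0.19 ± 0.04 (edgeR, adjusted p 0.000215). MI0000399, mir-299 or mir-495, differed by -0.29 ± 0.08 (adjusted p 0.00253), from a control median of 66.02 to 53.6 CPM at 6 months and from 57.1 to 44.4 CPM at 10 months. It was called only with both ages combined, as was MI0003535, one of the 5 hairpins of 79 bases, which fell by 0.16 ± 0.04 (adjusted p 0.00221), from 1183 to 1070 CPM and from 1284 to 1140 CPM. With only Q20 mice as controls these 3 lower hairpins were no longer called, with adjusted p-values of 0.0674 to 0.21 in edgeR. MI0000793, mir-376a or mir-377, was higher by 0.16 ± 0.04 (adjusted p 0.00209), with medians of 208.7 CPM in controls and 232.2 CPM in Q140 at 6 months and of 282.4 and 308.5 CPM at 10 months. Its controls differed among themselves at 6 months, with medians of 197.5 CPM in WT mice of the Q20 line, 208.7 CPM in Q20 and 235.3 CPM in WT mice of the Q50 line, the last above that of Q140.

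The remaining 6 hairpins called with both ages combined were all higher, and they are named because they were called. They were mir-539 (MI0003520, 0.19 ± 0.06), mir-667 (MI0004196, 0.16 ± 0.10), mir-666 (MI0004553, 0.14 ± 0.06), MI0004134 (0.16 ± 0.05), MI0000176 (0.11 ± 0.04) and MI0000605 (0.10 ± 0.04), with adjusted p-values in edgeR from 0.0137 to 0.0395. Each lost its call when 1 or more single libraries were left out, from 1 library for mir-539 and MI0004134 to 10 for mir-666. All 6 also lost their call with total counts and with limma on FPKM values. With only WT mice as controls all of them except MI0000176 lost it. Without Q140 6-month male replicate 1, the library of lowest connectivity in that group, the adjusted p of mir-667 was 0.317 and its direction turned, that of mir-666 was 0.103 and that of mir-539 0.0867. mir-667 ranged from 499.9 to 1935 CPM in Q140 mice at 6 months (median 558.1), against 400.4 to 1591 CPM in controls (median 571.2). At 10 months mir-540 (MI0003518) was called higher as well, by 0.25 ± 0.08 (adjusted p 0.0195), without a call for both ages combined. With single libraries left out in turn, this 10-month call was lost for 2 of 48 (edgeR, adjusted p up to 0.062).

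By position, 3 of the 9 identifiers that could be placed in the *Rtl1* stretch were called higher and 1 lower with both ages combined, with a median log2 difference of 0.14. In the *Mirg* stretch 6 of 25 were higher and 2 lower, with a median of 0.03. The single identifier placed in *Rian*, mir-341 (MI0000625), had a log2 difference of -0.06 and was not called. The 7 identifiers that could not be placed held 1 called higher and 1 called lower. Over all hairpins tested, 12.9% were called higher and 12.2% lower. The stretches were not compared by a test. Of a list of hairpins with known roles in neurites and synapses, chosen with results of these data known, mir-134, mir-381 and mir-485 could be identified. None of the 3 was called in Q140. The combined log2 difference was 0.06 ± 0.06 for mir-134, -0.07 ± 0.08 for mir-381 and -0.02 ± 0.04 for mir-485, which represses the synaptic vesicle protein SV2A in rodent neurons.

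Levels at both ages came from separate mice, Q140 and controls alike. Of the 42 members, 33 had the same sign of the Q140 difference at 6 and 10 months, including all 5 called at 6 months and all 9 called at 10 months. Across members, which are not independent, both sets of log2 differences had a Pearson r of 0.71.

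The fit of CAG length as a number uses the libraries of the Q140 comparison and those of Q50 and Q92. Slopes are log2 changes per 100 repeats, with 7 repeats given to WT. With both ages combined 7 members had a called slope above 0 and 4 one below 0, against 11% and 10.5% of all hairpins. A called slope does not show a graded change over the lengths between, since no member was called in Q50 or Q92, as given below. The slopes were 0.21 ± 0.04 for MI0001524 (edgeR, adjusted p 4.35e-05), 0.17 ± 0.04 for mir-127 (adjusted p 0.000247), 0.14 ± 0.03 for mir-433 (adjusted p 2.27e-05) and -0.18 ± 0.03 for MI0004601 (adjusted p 4.56e-06). The slope did not differ detectably between ages for any member, with 0 called by edgeR, DESeq2 or limma. By edgeR 2.11% of all hairpins were called. An unadjusted p under 0.05 was seen for 0 members and for 47 of all 474 hairpins.

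In Q92 mice no member was called. By edgeR 0 members passed at 6 months, where 0% of all hairpins were called, 0 at 10 months (1.69% of all) and 0 with both ages combined (0% of all). DESeq2 and limma also called 0, and 0, 2 and 5 members had an unadjusted p under 0.05. Of all 474 hairpins, 17, 52 and 43 had one. For mir-127 the log2 difference in Q92 was 0.0033 ± 0.092 at 6 months and 0.0039 ± 0.056 at 10 months, with medians of 127600 and 113200 CPM. The same control libraries enter the Q92, Q50 and Q140 comparisons. MI0001524 had 0.07 ± 0.07 and 0.05 ± 0.09, mir-433 -0.0046 ± 0.057 and 0.07 ± 0.05, and MI0004601 -0.11 ± 0.05 and -0.08 ± 0.07. MI0000793 had 0.11 ± 0.06 and 0.12 ± 0.05. With only Q20 mice as controls 2 members were called higher in Q92 with both ages combined, a count that was not made over all hairpins.

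In Q50 mice no member was called either. By edgeR 0 members passed at 6 months (0% of all hairpins), 0 at 10 months (0.211%) and 0 with both ages combined (0%), and DESeq2 and limma called 0. An unadjusted p under 0.05 was seen for 3, 2 and 2 members, and for 43, 23 and 44 of all 474 hairpins. mir-127 had a log2 difference of 0.08 ± 0.09 at 6 months and 0.10 ± 0.06 at 10 months, MI0001524 of -0.04 ± 0.07 and 0.11 ± 0.09, mir-433 of -0.01 ± 0.06 and 0.09 ± 0.05, and MI0004601 of -0.05 ± 0.05 and 0.05 ± 0.07. The median SE over members was 0.09 at 6 months and 0.07 at 10 months, as it was for Q140 and Q92.

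The comparison of ages asks which hairpins differ between 6 and 10 months, with 24 controls on each side against 8 and 24 mice in the Q140 comparison, so counts of calls cannot be ranked between them. The leading numbers of the sample descriptions fell in separate ranges at 6 and at 10 months, in every genotype. Age therefore cannot be told apart from what these numbers mark, and libraries of the same L number need not share a batch across ages. In the 48 controls mir-541, mir-540, mir-412, mir-127 and MI0004601 were lower at 10 than at 6 months and MI0000793 was higher. In all 7 members were higher at 10 months and 18 (42.9%) lower, against 19.4% and 24.3% of all hairpins, with a median log2 difference of -0.09 over members and -0.01 over all hairpins. With total counts in place of TMM scaling the median of all hairpins was 0.09, and 15 members were called higher and 8 lower. On log2(FPKM + 1) values tested with limma that median was 0.11, with 17 higher and 8 lower. The balance of directions therefore depended on scaling. Of the 25 hairpins called, 24 kept their direction with total counts and 15 their call, among them the 6 named here. With the L number as a factor 15 members were called, 6 higher and 9 lower, all of them among these 25. Without the libraries of connectivity Z under -5 it was 22, of which 19 were among the 25. Calls over all hairpins were not counted under these other settings.

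mir-541, which lies near the 3′ end of the cluster within *Mirg*, had the largest age difference. It ranged from 6268 to 15130 CPM in controls at 6 months (median 7254) and from 3101 to 6113 CPM at 10 months (median 4910). Every control at 10 months was below every control at 6 months, as for 0.422% of all hairpins in either direction, and mir-541 was the only member without overlap. The log2 difference was -0.76 ± 0.08 (edgeR, adjusted p 1.02e-10). Within L3, L4 and L5, the numbers present at both ages, it differed by -0.65, -0.49 and -0.85. L3 held 1 control of 6 months. The same values were -0.43, -0.42 and -0.50 for mir-412, -0.35, -0.17 and -0.41 for MI0004601, and 0.26, 0.35 and 0.22 for MI0000793. They were -0.48, -0.13 and -0.72 for mir-540 and -0.50, -0.11 and -0.08 for mir-127, so for these hairpins the age difference was much smaller within some L numbers than over all controls. With the L number as a factor that of mir-127 was -0.17 (edgeR, adjusted p 0.0105) and that of mir-540 -0.48 (adjusted p 0.00606).

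mir-412 (MI0001164), which lies between mir-409 and mir-369 beside mir-541, was much rarer. It ranged from 13.52 to 22.73 CPM at 6 months (median 18.54) and from 11.13 to 17.36 CPM at 10 months (median 13.78), a log2 difference of -0.44 ± 0.06 (edgeR, adjusted p 1.05e-08). mir-540 (MI0003518), which lies between *Meg3* and *Rtl1*, ranged from 131.8 to 490.7 CPM (median 175.8) and from 101.1 to 165 CPM (median 143.1), a difference of -0.56 ± 0.10 (adjusted p 1.69e-05). Its highest 6-month value came from male replicate 3 of the WT mice from the Q50 line, and without the libraries of connectivity Z under -5 the difference was -0.38 (adjusted p 3.32e-06). MI0004601 ranged from 289.3 to 420.3 CPM and from 196.1 to 338.9 CPM, a difference of -0.33 ± 0.05 (adjusted p 3.43e-07). mir-127 differed by -0.25 ± 0.05 (adjusted p 1.69e-05), between medians of 127200 and 109600 CPM. MI0000793 was higher at 10 months, with 184 to 273 CPM at 6 months (median 208.7) and 225.5 to 334.4 CPM at 10 months (median 282.4), a difference of 0.34 ± 0.04 (adjusted p 2.38e-08). The other called hairpins had log2 differences from -0.32 to 0.41, the highest being that of mir-380 (MI0000797), which was singled out after its values were seen. The 3 identified hairpins of the neurite and synapse list, mir-134, mir-381 and mir-485, were each called lower, by 0.10 to 0.22 on the log2 scale, where 24.3% of all hairpins were called lower. All 3 calls were lost with total counts, with limma, without a filter and with the L number. With total counts mir-134 had a log2 difference of -0.07 (edgeR, adjusted p 0.356) and mir-485 one of 0.0055 in the other direction. With single libraries left out in turn, the call of mir-381 was lost for 14 and that of mir-485 for 24 of the 48 libraries.

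The same age difference was examined in the other genotypes, each with 16 mice that are not among the controls. In Q50 9 members were higher and 4 lower at 10 months, against 13.5% and 10.8% of all hairpins. In Q92 5 were higher and 5 lower, against 8.65% and 10.3%. In Q140 2 were higher and 3 lower, against 6.75% and 8.02%. mir-541 fell by 0.40 ± 0.08 in Q50 (edgeR, adjusted p 0.00207), by 0.56 ± 0.10 in Q92 (adjusted p 0.000793) and by 0.66 ± 0.17 in Q140 (adjusted p 0.0172). Without Q140 6-month male replicate 1, at 16620 CPM against 5960 to 7788 CPM in the other 7, the difference in Q140 was -0.44 ± 0.07 (edgeR, adjusted p 0.000258), so the lines are not ranked. MI0004601 differed by -0.22 ± 0.07, -0.29 ± 0.08 and -0.42 ± 0.07 in these lines, and MI0000793 by 0.39 ± 0.07, 0.35 ± 0.08 and 0.37 ± 0.07. These 3 hairpins were called in all 4 sets of mice. With the L number as a factor none of them was called in Q140, where 0 members were, and MI0004601 was not called in Q92. Without Q140 6-month male replicate 1, 15 members in place of 5 were called in Q140, 10 higher and 5 lower, with these 3 among them. Calls over all hairpins were not counted without that library, so this rise cannot be read as particular to the cluster. mir-412 was called in Q92 and Q140 but not in Q50 (-0.24 ± 0.11, adjusted p 0.123), and mir-127 in none of the lines (-0.21, -0.23 and -0.34). Without Q140 6-month male replicate 1 mir-127 was called in Q140, at -0.41 ± 0.07 (edgeR, adjusted p 0.000541), and mir-540 had -0.04 ± 0.08 there in place of -0.37 ± 0.23. Of the 25 members called in controls, 19 had the same direction in Q50, 25 in Q92 and 25 in Q140. Across all 42 members the age differences had a Pearson r with those of controls of 0.81, 0.92 and 0.89. In all 4 sets 14 members were lower and 15 higher at 10 months, and 13 had mixed directions. Differences of the age effect between genotypes were tested only as the interaction of CAG length and age given above.

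**Figure D4:**
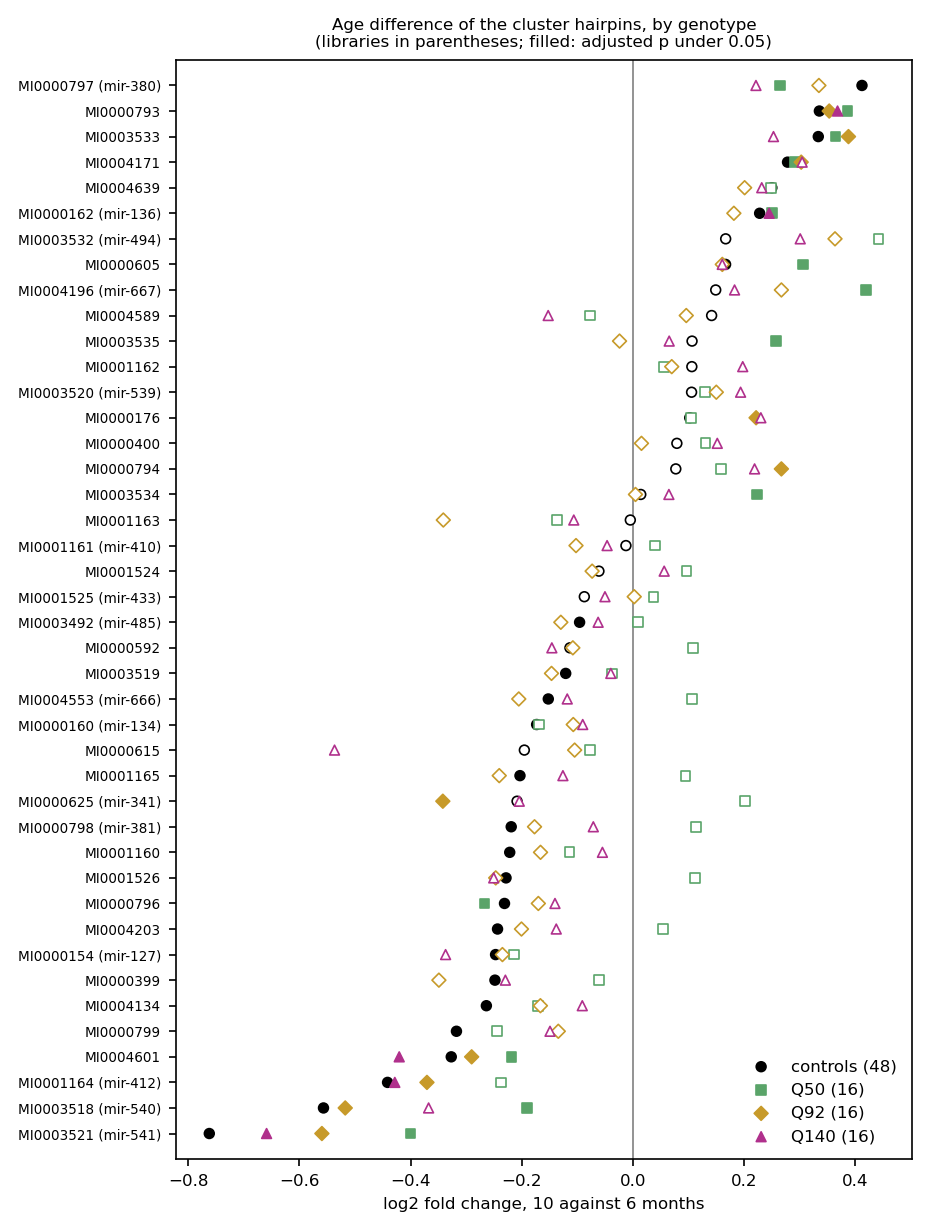
Log2 fold change between 10 and 6 months of each of the 42 hairpins in controls, Q50, Q92 and Q140 mice, ordered by the value in controls, with filled symbols for hairpins called in that set. mir-541 is lowest in controls (-0.76), and 29 of 42 hairpins have the same sign in all 4 sets.

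Neither sex nor Q20 against WT mice of its line gave a call in the cluster. WT mice of the Q50 line were not compared with the other controls. Between females and males in controls edgeR called 0 members (0.211% of all hairpins), and DESeq2 and limma called 0. An unadjusted p under 0.05 was seen for 5 members and for 48 of all 474 hairpins. Between Q20 mice and WT mice of the Q20 line, with both ages combined, edgeR, DESeq2 and limma called 0 members. By edgeR 0.211% of all hairpins were called. Here 4 members and 43 of all 474 hairpins had an unadjusted p under 0.05. With the L number as a factor 1 member was called lower in Q20, a count that was not made over all hairpins.

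Within groups, members did not vary as 1 unit. After subtraction of the mean of each group of 4 mice of 1 genotype, age and sex, pairs of members had a median Pearson r of 0.18 over the 96 libraries, with a range of -0.84 to 0.87. Pairs of a member and a hairpin outside the cluster had a median of -0.01, with a range of -0.90 to 0.92. Libraries share their scaling and depth, so these values are a description. Pairs within the *Rtl1* stretch had a median of 0.21, those within the *Mirg* stretch of 0.16, and those between both stretches of 0.20. The highest values were 0.87 for mir-380 with MI0001162 and for mir-541 with mir-667, and 0.86 for mir-341 with MI0001526. The lowest was -0.84, for mir-380 with mir-667. mir-541 was correlated above 0.5 with 17 other members and below -0.5 with 4.

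**Figure D5:**
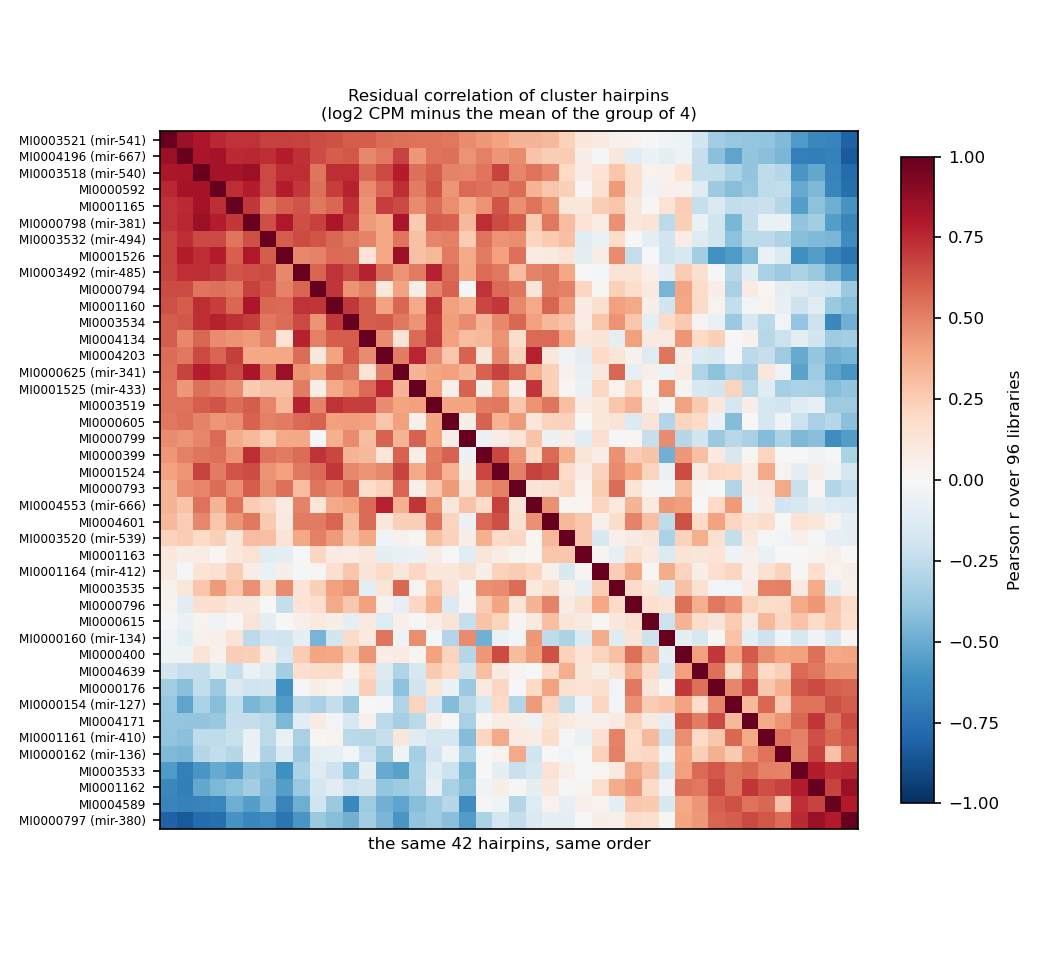
Pearson r between the 42 hairpins over 96 libraries after subtraction of group means (colour), ordered by the correlation with mir-541 on both axes. A block around mir-541, mir-667 and mir-540 at the top left is negatively correlated with mir-380 at the bottom, where r with mir-541 is -0.81.

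The same contrast was seen in the 2 of the 8 libraries of low connectivity that were set against their groups over all members. Both are also part of the correlations above. In Q140 6-month male replicate 1, 24 of 42 members differed from the median of the other 7 libraries by more than 0.5 on the log2 scale, from -2.21 for mir-380 to 1.83 for mir-494. In 6-month male replicate 3 of the WT mice from the Q50 line 16 did, from -1.88 for mir-380 to 1.52 for mir-540. Another of the 8, 6-month male replicate 4 of the WT mice from the Q20 line, was also high in mir-541 and mir-540. It had 14462 and 401.2 CPM of them, against at most 10599 and 279.6 CPM in the other 7, and was not compared over all members. Q92 10-month female replicate 1, the library of lowest connectivity, went the other way for mir-381, at 4325 CPM against 5838 to 6837 CPM in the other 7. Without the 8 libraries, the correlation over the other 88 was 0.74 for mir-541 with mir-667, -0.66 for mir-380 with mir-667 and -0.57 for mir-380 with mir-541, and mir-541 was correlated above 0.5 with 9 members and below -0.5 with 1. The median over pairs of members was then 0.16. Without them, 8 members were called in Q140 at 6 months (5 higher and 3 lower), 12 at 10 months (8 and 4) and 14 with both ages combined (9 and 5). These counts were not made over all hairpins.

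Among hairpins outside the cluster with a mean of at least 10 CPM, the 5 whose residual level was most like the summed level of the members were MI0016971 (r of 0.52), MI0004524 (0.49), MI0000595 (0.48), MI0000257 (0.46) and MI0004692 (0.45), over 96 libraries and among 274 hairpins compared.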

How the data were processed

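Small RNA of mouse striatum was measured in 96 libraries. The authors aligned clipped reads to mm10 with STAR and counted them with HTSeq, and the submitters' processing notes name CASAVA 1.8.2. The deposited estimated counts per hairpin were rounded. FPKM values deposited by the authors gave hairpin lengths and served in 1 alternative. 558 values of 6 members were not whole at a tolerance of 0.001, for a reason not given in the sources used here.

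Groups came from the labels. Counts were tested with edgeR 4.0.16 (R 4.3.3; TMM, robust quasi-likelihood F test) after filterByExpr with a minimum count of 10, which kept 474 of 1187 hairpins, with sex as a covariate. P-values of both ages were combined by signed Z values (Stouffer), and log2 differences by their mean. As alternatives, DESeq2 1.42.0 was run on counts and limma 3.58.1 on FPKM (log2, pseudocount 1), with RLE or total-count scaling, TMM factors from other hairpins, other filters and controls, the replicate number, the L number, and libraries left out. The study's batch covariate is not defined in the labels and was not used. The tests were tried on simulated data. No library was a duplicate: the lowest chi-square per degree of freedom between 2 libraries of a genotype and age was 25.

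Members and lists were chosen with earlier results of these data known. Described in full were the 6 most abundant members, the 8 with the smallest adjusted p in Q140 with both ages combined and the 6 with the smallest adjusted p for age in controls. The 5 other hairpins most like the summed level were also named.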

Additional observations from a re-analysis of the deposited data

Results flagged for a closer look

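In 24 of 192 groups of 8 libraries examined, 1 library lay far from the other 7, by a gap to its neighbour that passed Dixon's critical value for the group's range. Chance alone gives about 1 in 20 such groups. All values below are CPM, with the range of the other 7 libraries, unless said otherwise.

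Of these 24 values, 10 came from 2 libraries of low connectivity, 5 from each. In 6-month male replicate 3 of the WT mice from the Q50 line, mir-127 (MI0000154) was low at 93280 (others 120800 to 144100), whereas MI0001526 was high at 98230 (31120 to 60480), mir-381 (MI0000798) at 13790 (6211 to 8205), mir-541 (MI0003521) at 15130 (6391 to 8920) and mir-540 (MI0003518) at 490.7 (156.4 to 236.7). In Q140 6-month male replicate 1 the same 4 hairpins were high, MI0001526 at 118200 (37330 to 55450), mir-381 at 12360 (4499 to 6972), mir-541 at 16620 (5960 to 7788) and mir-540 at 558.9 (144.1 to 190.9). That library was also high in mir-433 (MI0001525), at 1164 (818.9 to 902.3).

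MI0001163 was flagged as low in 3 other males of 6 months, at 5578 in WT replicate 2 of the Q20 line (9540 to 12600), 4676 in Q20 replicate 3 (11350 to 14070) and 3503 in Q50 replicate 2 (9981 to 13230). Low values of MI0001163 that were not flagged occurred in both sexes and at both ages. WT mice from the Q50 line at 6 months had 2637 in female replicate 1 and 4950 in male replicate 1. At 10 months Q50 male replicate 2 had 3449 and Q92 male replicate 4 had 4631. mir-433 was high in 6-month male replicate 4 of the WT mice from the Q20 line, at 988.1 (709.5 to 813.2), and in Q20 6-month male replicate 2, at 926.2 (720.5 to 798.7). In Q92 10-month female replicate 1, the library of lowest connectivity, mir-381 was low at 4325 (5838 to 6837) and MI0000399 at 29.89 (48.7 to 61.6). In Q140 10-month male replicate 4, mir-541 was high at 6423 (4707 to 5104) and mir-412 (MI0001164) at 17.85 (11.83 to 13.35). Single values were mir-381 at 9442 in Q92 6-month female replicate 1 (5891 to 7355), MI0001526 at 46220 in Q20 10-month female replicate 3 (38540 to 42080), MI0003519 at 192.3 in 10-month female replicate 2 of the WT mice from the Q20 line (158.1 to 171.2) and MI0004601 at 289.3 in 6-month male replicate 1 of the same line (328.4 to 357.1). The summed share of the cluster was 18.83% in Q20 10-month male replicate 3, against 20.58% to 21.98% in the others.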

How the results depend on the processing

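Of 162 recomputed log2 values of the named hairpins, 159 kept direction and side of the threshold, 3 lost their call and 0 turned. These hairpins were chosen for the smallest adjusted p in the same comparisons, so their calls do not stand for those of other members. With total counts, 8 of all 14 members called in Q140 with both ages combined kept their call. For age in controls 15 of 25 did. Counts of called members moved as follows, and the cause was not tested unless the setting itself gives it. Calls over all hairpins were not counted under these settings, so a moved count need not be particular to the cluster. In Q140 at 6 months (5 called) they were 6 with total counts only (2 higher, 4 lower), 5 with limma (1 and 4), 2 with only Q20 controls and 8 without libraries of connectivity Z under -5, an alternative chosen after seeing the data, as was leaving out Q140 6-month male replicate 1 for age in Q140. With both ages combined (14) they were 10 with total counts (4 and 6), 9 with limma (4 and 5) and 9 without a filter on low counts. With single libraries left out they ranged from 3 to 8 at 6 months (3 without Q140 female replicate 3, and 8, 3 higher and 5 lower, without Q140 male replicate 1), from 8 to 12 at 10 months and from 10 to 15 combined. CAG length gave 11 to 14 calls and age in controls 21 to 28. Q92 with both ages gave 2 with only Q20 controls. Age in controls (25) gave 23 with total counts (15 and 8), 25 with limma (17 and 8) and 15 with the L number. Age in Q92 (10) gave 6 with TMM factors from other hairpins, 3 without a filter and 4 with the L number. Age in Q140 (5) gave 10 with total counts (8 and 2), 12 with DESeq2 (8 and 4), 11 with limma (8 and 3), 0 with the L number and 15 without libraries of low connectivity (10 and 5). Limma moved the median of all hairpins by 0.129 there. Q20 against WT gave 1 with the L number. The 10-to-6-month ratio of the summed share in controls was 0.928, and 0.919 without the 8 most abundant other hairpins.

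Same-numbered libraries of different groups had a mean residual correlation of -0.028 at 6 and 0.0026 at 10 months. The mean was taken over all groups of an age, so it cannot show whether mice within the Q20 or Q50 line were paired. With the replicate block 14 members were called in Q140 with both ages combined, 11 with CAG length and 25 with age in controls, as without it, and 7 in place of 10 with age in Q92. Depth limits the rarest hairpins most, such as mir-494 at a mean of 4.38 CPM.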
